A study of Mus musculus with 6 samples.

Results

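A set of 9 genes of chemokine and macrophage growth factor signalling was followed across the cell types of embryonic mouse skin: the ligands Cxcl12, Cxcl13, Cxcl14 and Ccl2, the receptors Cxcr4 and Ackr3, and the growth factors Csf1 and Il34 with their receptor Csf1r. They were chosen by gene symbol, and all 9 were present among the 28000 genes of the matrices. The study profiled whole dorsolateral and flank skin by droplet single-cell RNA sequencing, which tags the 3′ ends of transcripts and counts them by unique molecular identifiers (UMIs). Skin of 3 to 4 CD1 embryos was pooled for each of 6 libraries, dissociated with trypsin and sorted for cells that exclude DAPI. Of these, 2 libraries were of LOF embryos of genotype PDGFRalphaCreER(Lo);beta-catfl/fl;mTmG, 1 at E14.5 and 1 at E13.5, in which tamoxifen given at E11.5 activates a Cre driven by Pdgfra, a gene of dermal fibroblasts, so that beta-catenin is deleted and a membrane reporter switches from tdTomato to eGFP. The other 4 libraries were controls labelled WT, 2 at E14.5 and 2 at E13.5. The treatment text names tamoxifen for mice of the LOF genotype and says nothing of WT mice, so genotype and drug cannot be told apart. It gives 2 doses per body weight without saying which library received which, so the LOF libraries may differ in dose, and the share of deleted cells is unstated.

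Chemokines are small secreted proteins that steer migrating cells through G-protein-coupled receptors. CXCL12 acts on CXCR4, while ACKR3 binds the same ligand and takes it up, which shapes its gradients, and the pair guides vessels, muscle precursors and other migrating cells in embryos. CXCL13 is the ligand of CXCR5 and is best known for organising B-cell follicles, CXCL14 is a chemokine abundant in epithelia whose receptor is debated, and CCL2 draws monocytes through CCR2. CSF1 and IL-34 are the ligands of CSF1R, the receptor tyrosine kinase on which macrophages depend, and IL-34 in adult mouse epidermis maintains Langerhans cells.

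Because the LOF removes beta-catenin, which acts on genes through Tcf/Lef factors, the 250 bases before the start of each gene were searched for the Tcf/Lef core CTTTGA, read on either strand, in RefSeq promoter sequences of GRCm38.p6. Promoters were given for 6 of the 9 genes (Cxcl12, Cxcl13, Cxcl14, Cxcr4, Ackr3 and Csf1). The core was found in 2 of them, and in 4544 of 32851 promoters of all genes, or 13.8%. The 3 sequences shown are the 2 that hold the core, Cxcl12 and Csf1, and that of Cxcl14, which holds none and whose fibroblast level was lower in both LOF libraries, each 5′ to 3′ on the gene's strand and ending at the base before the start. Capitals mark the core, and a match is a run of letters, not a measured binding site.
Cxcl12 promoter (chr6:117168285-117168534, +): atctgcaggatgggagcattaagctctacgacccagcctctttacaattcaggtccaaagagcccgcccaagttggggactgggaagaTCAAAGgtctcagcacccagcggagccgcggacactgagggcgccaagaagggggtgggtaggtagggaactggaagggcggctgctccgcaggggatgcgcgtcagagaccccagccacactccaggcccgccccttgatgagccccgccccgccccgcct
Csf1 promoter (chr3:107760470-107760719, −): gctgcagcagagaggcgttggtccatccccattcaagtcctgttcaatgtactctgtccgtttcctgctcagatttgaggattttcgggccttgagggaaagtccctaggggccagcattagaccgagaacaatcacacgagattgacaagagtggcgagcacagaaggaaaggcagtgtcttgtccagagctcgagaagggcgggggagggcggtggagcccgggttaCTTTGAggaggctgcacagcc
Cxcl14 promoter (chr13:56296552-56296801, −): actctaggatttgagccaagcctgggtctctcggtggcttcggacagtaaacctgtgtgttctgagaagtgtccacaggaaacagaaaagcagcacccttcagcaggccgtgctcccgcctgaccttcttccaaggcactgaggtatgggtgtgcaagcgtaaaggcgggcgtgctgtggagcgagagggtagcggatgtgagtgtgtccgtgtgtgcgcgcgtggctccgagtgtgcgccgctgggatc

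On GRCm38, in the GENCODE annotation, the 9 are all protein-coding genes. The ligand genes lie apart, with Cxcl12 at chr6:117168535-117181367 (+), Cxcl13 at chr5:95956951-95961068 (+), Cxcl14 at chr13:56288643-56296551 (−) and Ccl2 at chr11:82035571-82037453 (+). The receptor genes Cxcr4, at chr1:128588199-128592293 (−), and Ackr3, at chr1:90203980-90216751 (+), share chromosome 1. Csf1 lies at chr3:107741048-107760469 (−), Il34 at chr8:110741829-110805924 (−) and Csf1r at chr18:61100598-61132149 (+). The libraries held 6096 to 9152 cell barcodes and 53461986 to 86446575 UMIs, and pairs of libraries shared 44 to 101 barcodes. After filters and removal of doublets 38397 cells remained. Cells were put into classes by summed UMIs of marker genes, none of them among the 9: 21624 fibroblasts, 7491 keratinocytes, 2400 muscle cells, 706 macrophages, 580 Schwann lineage cells, 482 mast cells, 301 endothelial cells, 265 pericytes, 162 chondrocytes and 111 melanoblasts. Of marker genes outside the gates, 5 of 5 were highest in fibroblasts, 4 of 5 in keratinocytes, 6 of 6 in macrophages, 5 of 5 in endothelial cells and 3 of 4 in pericytes. Levels are UMIs per 1000000 of the summed UMIs of a class in a library (CPM), and libraries with fewer than 20 cells of a class were left out, so that pericytes have 4 libraries. Reporter RNA did not follow the labels in all libraries. In fibroblasts eGFP was at 325 CPM in E14.5 LOF and 348 CPM in E13.5 LOF, but also at 93.7 and 120 CPM in replicate 2 of the E14.5 and E13.5 controls, against 5.31 and 2.96 CPM in replicate 1 of those controls. LOF results are therefore given with and without the replicate 2 controls. In keratinocytes tdTomato, the unswitched reporter, was at 62.5 CPM in E14.5 LOF and 991 CPM in E13.5 LOF, both labelled mTmG, but also at 39.8 and 311 CPM in E14.5 controls and 1037 and 831 CPM in E13.5 controls, all labelled WT. Ctnnb1, the gene of beta-catenin, was at 199 CPM in E14.5 LOF and 247 CPM in E13.5 LOF fibroblasts, against 184 and 176 CPM in E14.5 controls and 193 and 178 CPM in E13.5 controls, and 3′ tags outside the deleted exons check nothing.

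**Figure D1:**
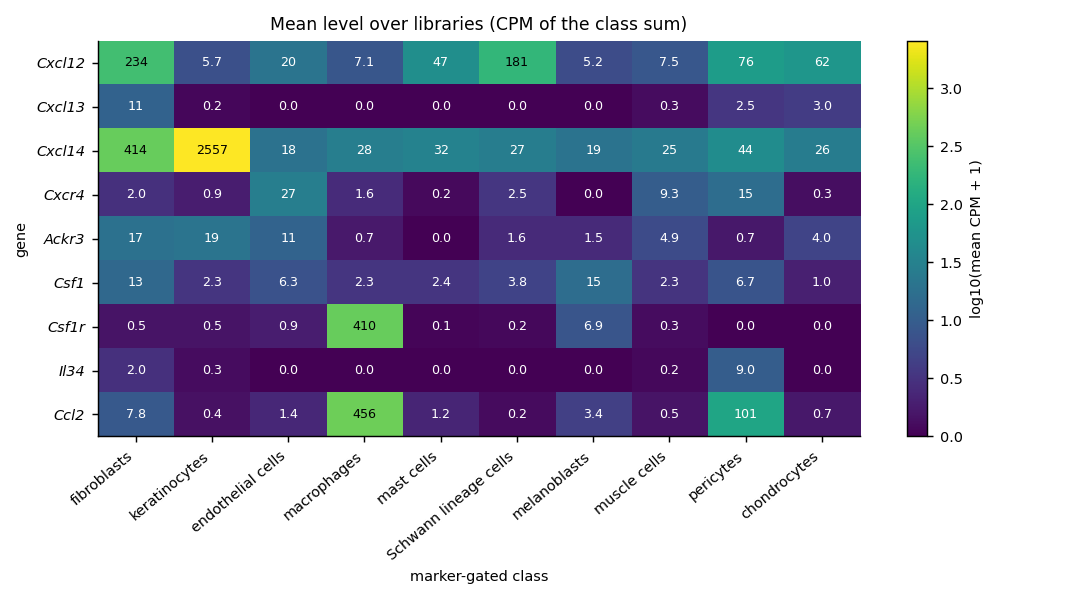
Mean level of each gene (rows) in each marker-gated class (columns), as CPM of the class sum averaged over libraries (2 to 6 a class); colour is log10(mean CPM + 1) and the printed number is the mean CPM. Cxcl14 reached 2557 CPM in keratinocytes, Csf1r 410 CPM and Ccl2 456 CPM in macrophages, and Cxcl12 234 CPM in fibroblasts.

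Each of the 9 genes had its own distribution over the classes. Cxcl12 and Cxcl13 were fibroblast genes, Cxcl14 was highest in keratinocytes, Csf1r and Ccl2 in macrophages, and Cxcr4 in endothelial cells. Ackr3 was shared by keratinocytes and fibroblasts, Csf1 came mainly from fibroblasts and Il34 from pericytes and fibroblasts. Classes were compared within libraries, with the library as a block, by edgeR's quasi-likelihood test with Benjamini-Hochberg adjustment over the genes tested in each comparison, and a gene was called at an adjusted p under 0.05. Most genes differ between such unlike classes: 75.3% of genes tested passed in keratinocytes over fibroblasts (34.9% higher, 40.3% lower), 69.8% in macrophages over fibroblasts (29% higher, 40.8% lower), 49.2% in endothelial cells over fibroblasts (19.3% higher, 29.9% lower) and 36.1% in pericytes over fibroblasts (15.4% higher, 20.7% lower). A call between 2 classes is therefore common, and the sizes carry the description. The 3′ tags do not allow levels of different genes to be set against each other, so each gene is described by itself.

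Cxcl12, the ligand of Cxcr4, was highest in fibroblasts, with 258 CPM in E14.5 LOF and 352 CPM in E13.5 LOF, against 148 and 182 CPM in E14.5 controls and 238 and 227 CPM in E13.5 controls. Fibroblasts held 92.9% of all its UMIs. Schwann lineage cells followed at 181 CPM, with a range of 68.0 to 321 CPM that overlapped that of fibroblasts, and fibroblasts were higher in 4 of 6 libraries. The spread in Schwann lineage cells was wide, and 309 and 321 CPM were reached in the replicate 1 control and the LOF library at E14.5. Pericytes averaged 76.2 ± 42.3 CPM (SD, n = 4) and endothelial cells 19.5 ± 13.4 CPM (SD, n = 6). Keratinocytes were among the lowest classes, at 5.71 ± 3.96 CPM against 234 ± 70.4 CPM in fibroblasts (SD, n = 6 each). The difference was −5.51 on the log2 scale (SE 0.32, edgeR adjusted p = 1.94e-06), lower in 6 of 6 libraries. With every cell thinned to 3000 UMIs, 1.35% of keratinocytes and 37.3% of fibroblasts had a Cxcl12 UMI. Unthinned it was 5.57% of keratinocytes and 57.8% of fibroblasts, at median depths per library of 10213 to 15883 UMIs a keratinocyte and 7230 to 10093.5 UMIs a fibroblast.

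Within the dermis Cxcl12 was highest in lower dermal fibroblasts, gated by Mfap5, Clec3b, Pi16, Dpt, Fndc1 and Dlk1. Upper dermal fibroblasts, gated by the Wnt response genes Lef1, Axin2, Nkd1, Nkd2 and Apcdd1, had 96.6 CPM in E14.5 LOF, 170 CPM in E13.5 LOF, against 85.5 and 76.6 CPM in E14.5 controls and 138 and 162 CPM in E13.5 controls. Lower dermal fibroblasts had 307 CPM in E14.5 LOF, 441 CPM in E13.5 LOF, against 205 and 278 CPM in E14.5 controls and 355 and 301 CPM in E13.5 controls. The 2 sets did not overlap, and the upper dermal cells were lower in 6 of 6 libraries by 1.41 on the log2 scale (log2 −1.41, SE 0.12, edgeR adjusted p = 6.87e-05), where 46.3% of genes tested passed, 24% higher and 22.3% lower. Cells of the dermal condensate, the cluster of fibroblasts beneath a forming hair follicle gated by Sox2, Sox18, Foxd1, Prdm1, Bmp3 and Inhba, had 25.7 to 174 CPM, against 154 to 354 CPM in other fibroblasts. They were lower in 6 of 6 libraries (log2 −1.37, SE 0.25, edgeR adjusted p = 0.0408), a call that was lost without either replicate 1 control or either LOF library, at adjusted p of 0.0625 to 0.195, with no filter on low counts, at adjusted p = 0.0542, and with stricter gates, at adjusted p = 0.354. Of genes tested in the condensate, 4.9% passed, 2.08% higher and 2.82% lower. Of marker genes outside this gate, 4 of 4 averaged higher in it than in other fibroblasts. Among them, Ptch1 and Gli1 fell to 0 CPM in at least 1 library.

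Cxcl13, the ligand of Cxcr5, was sparse and almost confined to fibroblasts, which held 96.4% of its 2634 UMIs. Macrophages, endothelial cells, mast cells, Schwann lineage cells and melanoblasts held none, where 3 UMIs would have given 1.60 to 3.05 CPM in a library of macrophages. Fibroblasts had 17.1 CPM in E14.5 LOF and 31.2 CPM in E13.5 LOF, against 5.43 and 2.08 CPM in E14.5 controls and 7.17 and 1.41 CPM in E13.5 controls. Both LOF libraries lay above all 4 controls, and both replicate 2 controls were lowest. The UMIs sat mainly in lower dermal cells. Upper dermal fibroblasts had 0.263 CPM in E14.5 LOF, 6.53 CPM in E13.5 LOF, against 0.101 and 0 CPM in E14.5 controls and 0.510 and 0.277 CPM in E13.5 controls. Lower dermal fibroblasts had 22.6 CPM in E14.5 LOF, 50.9 CPM in E13.5 LOF, against 13.2 and 4.30 CPM in E14.5 controls and 20.4 and 2.43 CPM in E13.5 controls. Upper dermal cells were lower in 6 of 6 libraries (log2 −4.54, SE 0.44, edgeR adjusted p = 1.53e-04). After thinning 1.55% of fibroblasts had a Cxcl13 UMI, so most of the level came from few cells. Its receptor gene Cxcr5 had 10 UMIs over the named classes together, cells outside them not counted.

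Cxcl14 was the epidermal member. Keratinocytes had 1603 CPM in E14.5 LOF and 3618 CPM in E13.5 LOF, against 1550 and 1627 CPM in E14.5 controls and 3338 and 3605 CPM in E13.5 controls. The libraries fell into 2 tight sets by stage and not by genotype. Keratinocytes averaged 2557 ± 1060 CPM and fibroblasts, the next class, 414 ± 156 CPM (SD, n = 6 each), and keratinocytes were higher in 6 of 6 libraries (log2 2.66, SE 0.34, edgeR adjusted p = 1.80e-04). The ranges of the 2 classes did not overlap, nor did those of fibroblasts and pericytes, which followed at 44.2 CPM. Other classes averaged 18.2 to 31.6 CPM with overlapping ranges. After thinning a Cxcl14 UMI was found in 90.0% of keratinocytes, 50.8% of fibroblasts and 6.64% of endothelial cells. Unthinned it was found in 93.6%, 69.7% and 18.3%, and median depths per library were 10132.5 to 13909.5 UMIs in endothelial cells. Shares after thinning were 5.55% to 8.32% in the endothelial, muscle, mast, macrophage, Schwann lineage, melanoblast and chondrocyte gates, 13.6% in pericytes and 11.3% in 71 red cells, a type that should lack the gene. How much of these low shares is free RNA was not tested.

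Among keratinocytes Cxcl14 was lower in the suprabasal cells, gated by Krt1, Krt10, Sbsn and Krtdap. They had 783 CPM in E14.5 LOF, 1826 CPM in E13.5 LOF, against 747 and 1017 CPM in E14.5 controls and 1513 and 1944 CPM in E13.5 controls. Keratinocytes outside that gate had 1792 CPM in E14.5 LOF, 3782 CPM in E13.5 LOF, against 1891 and 1882 CPM in E14.5 controls and 3520 and 3639 CPM in E13.5 controls. The suprabasal level was lower in each library (log2 −1.13, SE 0.05, edgeR adjusted p = 1.09e-11), where 36.9% of genes tested passed, 16.3% higher and 20.7% lower. Cells of the hair placode, the epidermal bud gated by Shh, Edar, Dkk4, Lhx2 and Wnt10b, were higher in 3 of 6 libraries and lower in the others (log2 0.01, SE 0.03, edgeR adjusted p = 0.895). Of marker genes outside the placode gate, 3 of 4 averaged higher in it than in other keratinocytes. The other, Sostdc1, was lower, at 149 CPM against 335 CPM. The higher ones did not stand out in every library. In its lowest library of placode cells Bmp2 was at 10.1 CPM, Fgf20 at 4.03 CPM and Lgr6 at 5.02 CPM. Their means in other keratinocytes were 18.1, 3.43 and 6.78 CPM. In the dermis Cxcl14 lay at 135 to 511 CPM in condensate cells, lower than other fibroblasts in 6 of 6 libraries without passing the test (log2 −0.71, SE 0.16, edgeR adjusted p = 0.0669), though it passed by DESeq2 (adjusted p = 0.00260; 3.81% of genes called) and with no doublet removal (edgeR adjusted p = 0.0208; 4.61% called). Upper dermal cells were above lower dermal cells in 5 of 6 libraries by a small amount (log2 0.20, SE 0.06, edgeR adjusted p = 0.0246), a call lost without either E13.5 control, the replicate 1 E14.5 control or the E14.5 LOF library, at adjusted p of 0.0539 to 0.0700, and with stricter gates, at adjusted p = 0.225.

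Ccl2, the monocyte attractant, was highest in macrophages, at 497 CPM in E14.5 LOF and 444 CPM in E13.5 LOF, against 580 and 573 CPM in E14.5 controls and 377 and 266 CPM in E13.5 controls. Macrophages made up 1.46% to 2.09% of cells and held 57.4% of its 6380 UMIs. Pericytes were second, at 118 CPM in E14.5 LOF, 137 CPM in E13.5 LOF, against 76.0 and 73.8 CPM in E14.5 controls, with no overlap with macrophages or fibroblasts. Fibroblasts averaged 7.83 ± 3.41 CPM (SD, n = 6) and keratinocytes at most 0.853 CPM. The macrophage level exceeded that of fibroblasts in 6 of 6 libraries (log2 6.01, SE 0.31, edgeR adjusted p = 2.35e-06), and the pericyte level in 4 of 4 (log2 3.86, SE 0.22, edgeR adjusted p = 4.95e-09). After thinning 56.2% of macrophages had a Ccl2 UMI, 75.1% unthinned, and 1.43% of fibroblasts, 3.63% unthinned. Ccl2 is also an early response gene, and genes induced by dissociation were high in the same class. The summed level of 11 such genes, Fos, Jun and Egr1 among them, was 3997 CPM in E14.5 LOF and 2352 CPM in E13.5 LOF macrophages, against 4965 and 4768 CPM in E14.5 controls and 2437 and 2443 CPM in E13.5 controls. Their part in the Ccl2 level was not tested.

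Cxcr4, the receptor of CXCL12, was low in all classes and highest in endothelial cells, which line vessels, at 16.6 CPM in E14.5 LOF and 29.9 CPM in E13.5 LOF, against 23.9 and 41.5 CPM in E14.5 controls and 43.6 and 8.13 CPM in E13.5 controls. The summed dissociation genes were at 1005 CPM in E14.5 LOF and 1380 CPM in E13.5 LOF endothelial cells, against 1214 and 1996 CPM in E14.5 controls and 789 and 695 CPM in E13.5 controls, and their part in Cxcr4 was not tested. The Cxcr4 values rest on 5 to 24 UMIs a library, and their exact 95% Poisson intervals are wide. The endothelial level was above that of fibroblasts in 6 of 6 libraries, at 27.3 ± 13.9 CPM against 1.97 ± 0.889 CPM (SD, n = 6 each; log2 3.77, SE 0.31, edgeR adjusted p = 1.15e-10). Pericytes came next at 15.4 ± 5.70 CPM (SD, n = 4), also above fibroblasts in 4 of 4 libraries (log2 3.21, SE 0.37, edgeR adjusted p = 3.40e-08). Muscle cells averaged 9.25 CPM and, being many, held 30.0% of the 1245 UMIs of the gene, against 33.9% in fibroblasts. Ranges of neighbours in this order overlapped. Macrophages, at 1.60 CPM, did not differ from fibroblasts past the test (log2 −0.25, SE 0.50, edgeR adjusted p = 0.666). Keratinocytes were below fibroblasts in 6 of 6 libraries (log2 −1.02, SE 0.38, edgeR adjusted p = 0.0375), a call lost without any 1 of 4 libraries, both E13.5 controls, the replicate 1 E14.5 control and the E13.5 LOF, at adjusted p of 0.0534 to 0.103, and with stricter gates, at adjusted p = 0.0710. After thinning 6.98% of endothelial cells and 0.598% of fibroblasts had a Cxcr4 UMI, and unthinned 15.3% of endothelial cells and 1.44% of fibroblasts.

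In the forming hair follicle Cxcr4 was higher in the placode than in other keratinocytes, and in the condensate it varied by library. Placode keratinocytes had 6.23 CPM in E14.5 LOF, 4.03 CPM in E13.5 LOF, against 12.5 and 12.7 CPM in E14.5 controls and 2.97 and 2.01 CPM in E13.5 controls. Other keratinocytes had 0.481 CPM in E14.5 LOF, 0.0886 CPM in E13.5 LOF, against 0.270 and 0.617 CPM in E14.5 controls and 0.864 and 0.395 CPM in E13.5 controls. The 2 sets did not overlap (log2 3.80, SE 0.48, edgeR adjusted p = 1.37e-05, higher in 6 of 6 libraries), though the placode values rest on 2 to 16 UMIs a library. In the placode 7.2% of genes tested passed, 3.5% higher and 3.71% lower. Condensate fibroblasts had 3.68 CPM in E14.5 LOF, 0 CPM in E13.5 LOF, against 10.8 and 35.0 CPM in E14.5 controls and 0.851 and 12.2 CPM in E13.5 controls, from 0 to 24 UMIs a library. Other fibroblasts had 0.672 CPM in E14.5 LOF, 2.68 CPM in E13.5 LOF, against 1.01 and 1.27 CPM in E14.5 controls and 3.32 and 1.31 CPM in E13.5 controls. The condensate was higher in 4 of 6 libraries and did not pass the test (log2 2.49, SE 0.92, edgeR adjusted p = 0.213). It passed without the replicate 1 E13.5 control (log2 3.16, edgeR adjusted p = 0.00713; 7.04% of genes called), with stricter gates (log2 2.30, edgeR adjusted p = 0.0110; 8.17% called) and with no doublet removal (log2 2.40, edgeR adjusted p = 0.0251). The 2 libraries in which it was not higher are of E13.5.

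Ackr3, the receptor that takes up CXCL12, was at like levels in epidermis and dermis. Keratinocytes had 14.5 CPM in E14.5 LOF and 37.3 CPM in E13.5 LOF, against 10.4 and 8.96 CPM in E14.5 controls and 29.4 and 15.1 CPM in E13.5 controls. Fibroblasts had 10.4 CPM in E14.5 LOF and 27.7 CPM in E13.5 LOF, against 13.2 and 9.76 CPM in E14.5 controls and 29.4 and 14.3 CPM in E13.5 controls. Library by library the 2 classes stayed close, with keratinocytes higher in 4 of 6 (log2 0.15, SE 0.12, edgeR adjusted p = 0.254), and keratinocytes held 27.9% and fibroblasts 64.2% of its UMIs. Endothelial cells had 4.73 CPM in E14.5 LOF, 9.34 CPM in E13.5 LOF, against 4.97 and 6.39 CPM in E14.5 controls and 36.7 and 4.88 CPM in E13.5 controls, from 2 to 16 UMIs. They were below fibroblasts in 5 of 6 libraries (log2 −0.81, SE 0.28, edgeR adjusted p = 0.0175), a call lost without the replicate 1 E14.5 control, at adjusted p = 0.0665, or the E13.5 LOF library, at adjusted p = 0.0724. Macrophages, at 0.684 CPM, and pericytes, at 0.667 CPM, lay near 0, and mast cells held no Ackr3 UMI. After thinning 4.96% of keratinocytes and 5.03% of fibroblasts had an Ackr3 UMI, and unthinned 17.4% of keratinocytes and 14.2% of fibroblasts, while the share in macrophages was 0.144% after thinning and 0.708% unthinned.

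In the epidermis Ackr3 was lower both in the placode and in the suprabasal cells. Placode cells had 5.20 CPM in E14.5 LOF, 16.1 CPM in E13.5 LOF, against 0.783 and 2.72 CPM in E14.5 controls and 18.3 and 13.04 CPM in E13.5 controls. Other keratinocytes of the same libraries, in the same order, had 14.9, 38.3, 11.1, 9.49, 31.2 and 15.3 CPM. The placode was lower in 6 of 6 (log2 −1.07, SE 0.23, edgeR adjusted p = 0.00599; with no library block, adjusted p = 0.656), so that Cxcr4 was higher and Ackr3 lower there. Suprabasal cells had 0 to 13.4 CPM, against 10.5 to 39.8 CPM outside that gate, lower in 6 of 6 libraries (log2 −1.16, SE 0.15, edgeR adjusted p = 2.40e-07). In the dermis neither comparison passed, with log2 −0.29 for the condensate (SE 0.28, edgeR adjusted p = 0.666) and −0.24 for upper over lower dermal cells (SE 0.18, edgeR adjusted p = 0.319).

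Csf1, the first ligand of Csf1r, came mainly from fibroblasts, which held 82.1% of its UMIs. They had 20.6 CPM in E14.5 LOF and 12.6 CPM in E13.5 LOF, against 15.3 and 11.0 CPM in E14.5 controls and 9.79 and 9.31 CPM in E13.5 controls. Melanoblasts had a mean of 15.3 CPM, but over 3 libraries with a range of 0 to 41.4 CPM. Pericytes, at 6.69 ± 2.28 CPM (SD, n = 4), lay below fibroblasts with no overlap, and endothelial cells averaged 6.26 ± 2.46 CPM (SD, n = 6). The other classes lay at 0.985 to 3.82 CPM. Keratinocytes were below fibroblasts in 6 of 6 libraries (log2 −2.50, SE 0.25, edgeR adjusted p = 4.05e-05), as were macrophages (log2 −2.41, SE 0.29, edgeR adjusted p = 9.16e-07). In the dermis Csf1 had the same side as Cxcl12. Upper dermal cells had 3.72 to 9.99 CPM, against 12.01 to 27.4 CPM in lower dermal cells, lower in 6 of 6 libraries with no overlap (log2 −1.73, SE 0.26, edgeR adjusted p = 9.82e-04). Condensate cells were lower than other fibroblasts in 5 of 6 (log2 −1.60, SE 0.36, edgeR adjusted p = 0.0179), a call lost without the replicate 1 E14.5 control, at adjusted p = 0.174, or the E14.5 LOF library, at adjusted p = 0.0988, and by DESeq2, at adjusted p = 0.0686. In the placode Csf1 was at 13.5 CPM in E14.5 LOF and 0 CPM in E13.5 LOF. The placode of controls had 14.9 and 9.99 CPM at E14.5 and 0.989 and 1.003 CPM at E13.5, and other keratinocytes had 0.988 to 4.15 CPM over the 6 libraries. The placode passed as higher (log2 1.64, SE 0.38, edgeR adjusted p = 0.00936; DESeq2 adjusted p = 0.113). The difference stood in the 3 libraries of E14.5, with 11 to 19 UMIs each, while those of E13.5 had 0 to 2 UMIs.

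Il34, the other ligand of Csf1r, was sparse, with 453 UMIs in all cells. Pericytes, the cells that wrap small vessels, had the highest level, with 8.90 CPM in E14.5 LOF, 3.96 CPM in E13.5 LOF, against 5.98 and 17.1 CPM in E14.5 controls, from 2 to 13 UMIs. They were above fibroblasts in 4 of 4 libraries (log2 1.84, SE 0.42, edgeR adjusted p = 7.44e-04), a call lost with no library block, at adjusted p = 0.146. Fibroblasts held 73.7% of its UMIs, with 1.87 CPM in E14.5 LOF and 0.418 CPM in E13.5 LOF, against 2.96 and 4.90 CPM in E14.5 controls and 0.774 and 0.950 CPM in E13.5 controls. The E14.5 libraries lay above those of E13.5 in both genotypes, and each LOF library lay below both controls of its stage. Keratinocytes had at most 0.711 CPM and were below fibroblasts in 6 of 6 libraries (log2 −2.60, SE 0.22, edgeR adjusted p = 1.14e-05). Macrophages, endothelial cells, mast cells, Schwann lineage cells, chondrocytes and melanoblasts held no Il34 UMI. Il34 and Csf1 had opposite sides of the dermis. Upper dermal cells had 7.11 CPM in E14.5 LOF, 1.15 CPM in E13.5 LOF, against 4.97 and 7.05 CPM in E14.5 controls and 1.36 and 1.11 CPM in E13.5 controls. Lower dermal cells of the same libraries, in the same order, had 0.681, 0.194, 0.888, 2.40, 0.356 and 0.187 CPM. The upper level was higher in 6 of 6 libraries (log2 2.36, SE 0.31, edgeR adjusted p = 2.61e-04; with no library block, adjusted p = 0.0513).

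Csf1r, the receptor of both growth factors, marked macrophages, with 421 CPM in E14.5 LOF and 394 CPM in E13.5 LOF, against 380 and 448 CPM in E14.5 controls and 453 and 361 CPM in E13.5 controls. The 6 libraries lay within 410 ± 37.5 CPM (SD, n = 6), and fibroblasts were at 0.523 ± 0.220 CPM (SD, n = 6). The difference was 9.80 on the log2 scale (SE 0.16, edgeR adjusted p = 4.80e-18, higher in 6 of 6 libraries). After thinning 67.5% of macrophages and 0.187% of fibroblasts had a Csf1r UMI, and unthinned 95.6% of macrophages and 0.453% of fibroblasts, at median depths of 7636 to 15208.5 UMIs a macrophage per library. Melanoblasts had 6.93 CPM on average over 3 libraries, with 0 in at least 1 library, and the macrophage gene Lyz2 was at 121 CPM in the same gate. Whether macrophage RNA gives the Csf1r UMIs of melanoblasts was not tested. In the other classes Csf1r averaged 0 to 0.859 CPM.

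**Figure D2:**
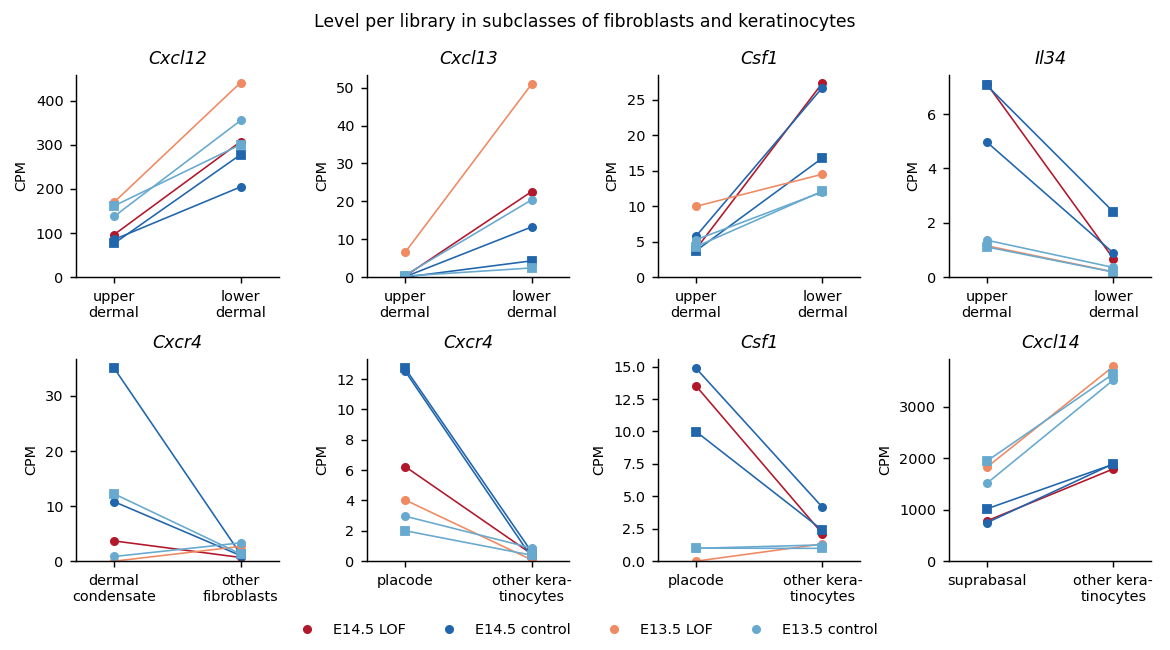
Level (CPM of the subclass sum, linear axes from 0) in 2 subclasses joined by a line for each library, circles for replicate 1 and squares for replicate 2; upper row, upper against lower dermal fibroblasts; lower row, condensate against other fibroblasts and placode or suprabasal against other keratinocytes. Cxcl12, Cxcl13 and Csf1 ran higher in lower dermal cells and Il34 in upper dermal cells in all 6 libraries, and Cxcr4 in the placode in all 6.

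With LOF set against control over both stages, with stage as a covariate, none of the 15313 genes tested in fibroblasts passed in edgeR (0% called; 1249 at an unadjusted p under 0.05, and 265 or 1.85% by DESeq2), so no gene of the 9 was called. Without the replicate 2 controls, the libraries that carried eGFP RNA, 735 genes or 4.78% were called. Cxcl12 was higher in both LOF libraries than in the 2 controls of their stage (log2 0.56, SE 0.18, edgeR adjusted p = 0.468), and it passed without the replicate 2 controls (log2 0.70, edgeR adjusted p = 0.00637). Cxcl13 was higher in both as well (log2 2.50, SE 0.59, edgeR adjusted p = 0.375), and passed without the replicate 2 controls (log2 1.92, edgeR adjusted p = 0.00121) and by DESeq2 with all libraries (log2 2.50, adjusted p = 0.00269). With an inferred batch of 3 levels the replicate 2 controls form their own batch, so the LOF contrast is the same by design. There 4.38% of genes were called. Both of these fits set 1 LOF library against 1 control at each stage. Cxcl14 was lower, at 305 CPM in E14.5 LOF and 190 CPM in E13.5 LOF, against 429 and 587 CPM in E14.5 controls and 393 and 582 CPM in E13.5 controls. Both LOF libraries lay below all 4 controls (log2 −1.11, SE 0.31, edgeR adjusted p = 0.411; DESeq2 adjusted p = 0.0381). Its replicate 2 controls were the highest, and without them the value was −0.75 on the log2 scale (edgeR adjusted p = 0.205).

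**Figure D3:**
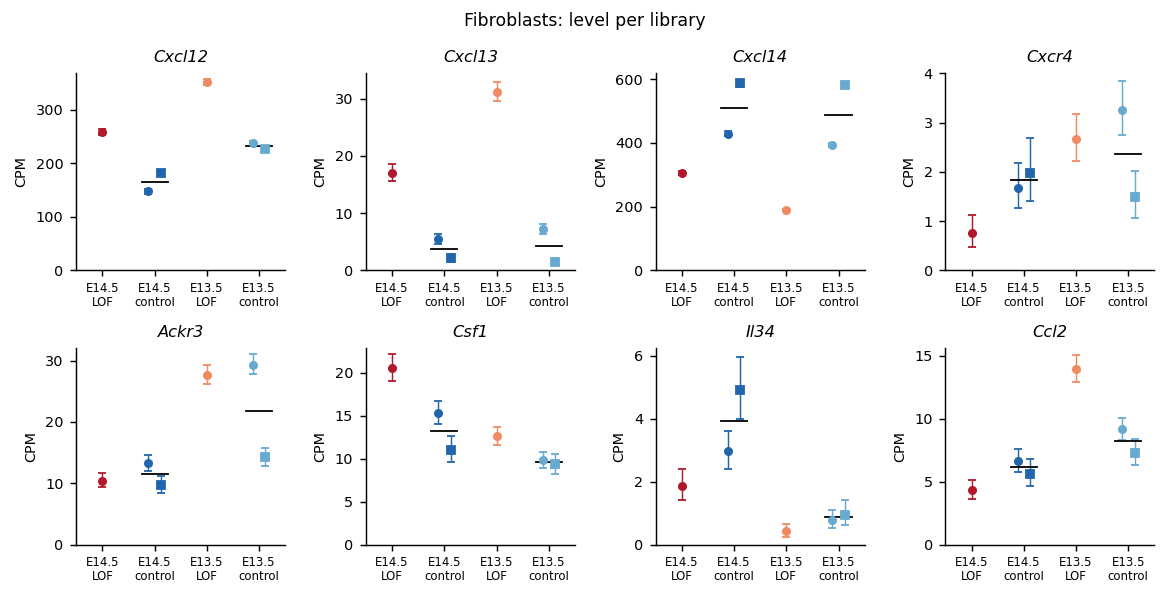
Level of 8 of the genes in fibroblasts (CPM, linear axes from 0), LOF left of control at each stage; points are libraries (circles replicate 1, squares replicate 2), bars are exact 95% Poisson intervals of the UMI count and lines the mean of 2 controls. Both LOF libraries lay above the controls of their stage for Cxcl12, Cxcl13 and Csf1, and below them for Cxcl14 and Il34.

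The growth factors moved in opposite directions in LOF fibroblasts without passing the test. Csf1 was higher in each LOF library than in both controls of its stage (log2 0.47, SE 0.17, edgeR adjusted p = 0.533, and 0.0737 as adjusted p without the replicate 2 controls). Il34 was lower in each (log2 −1.12, SE 0.38, edgeR adjusted p = 0.491, and log2 −0.73 with adjusted p = 0.243 without the replicate 2 controls). The make-up of the fibroblast class differed between the same libraries. Lower dermal cells were 63.2% of fibroblasts in E14.5 LOF and 42.7% in E13.5 LOF, against 34.9% and 38.0% in E14.5 controls and 25.6% and 20.8% in E13.5 controls. Upper dermal cells were 11.48% in E14.5 LOF and 4.53% in E13.5 LOF, against 30.5% and 25.6% in E14.5 controls and 24.2% and 23.2% in E13.5 controls. The upper gate is made of Wnt response genes downstream of beta-catenin, so the gate itself depends on the deleted gene. Cxcl12, Cxcl13 and Csf1, higher in LOF fibroblasts, were the genes higher in lower dermal cells, and Il34, lower in LOF fibroblasts, was higher in upper dermal cells. The summed dissociation genes in fibroblasts were at 2221 CPM in E14.5 LOF and 1997 CPM in E13.5 LOF, against 2178 and 3186 CPM in E14.5 controls and 983 and 1313 CPM in E13.5 controls. The part of these shares and genes in the LOF values was not tested. Within lower dermal cells Cxcl13 was at 22.6 CPM in E14.5 LOF and 50.9 CPM in E13.5 LOF, above the controls of each stage, and Cxcl12 likewise, at 307 CPM in E14.5 LOF and 441 CPM in E13.5 LOF. Il34 within upper dermal cells, at 7.11 CPM in E14.5 LOF and 1.15 CPM in E13.5 LOF, lay beside controls of 4.97 and 7.05 CPM at E14.5 and 1.36 and 1.11 CPM at E13.5. Cxcl14 was lower in both LOF libraries than in the controls of their stage in both gates. In upper dermal cells it was at 366 CPM in E14.5 LOF and 224 CPM in E13.5 LOF, against 440 and 569 CPM in E14.5 controls and 426 and 637 CPM in E13.5 controls. In lower dermal cells it was at 259 CPM in E14.5 LOF and 198 CPM in E13.5 LOF, against 395 and 572 CPM in E14.5 controls and 359 and 539 CPM in E13.5 controls.

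In keratinocytes and macrophages no gene of the 9 passed between LOF and control. In keratinocytes Cxcl14 differed by less than its error (log2 0.02, SE 0.13, edgeR adjusted p = 0.991), and by 0.10 on the log2 scale without the replicate 2 controls (edgeR adjusted p = 0.824). Ackr3 was higher in each LOF library than in both controls of its stage without passing (log2 0.66, SE 0.27, edgeR adjusted p = 0.986), nor did it pass without the replicate 2 controls (log2 0.42, edgeR adjusted p = 0.381). In macrophages Csf1r (log2 −0.11, SE 0.23, edgeR adjusted p = 0.985) and Ccl2 (log2 0.05, SE 0.25, edgeR adjusted p = 0.988) did not pass. Without the replicate 2 controls Csf1r was at log2 −0.05 (edgeR adjusted p = 0.990) and Ccl2 turned to log2 −0.0142 (edgeR adjusted p = 0.994). EdgeR called 0% of genes in both classes, where 228 of 13195 genes in keratinocytes and 181 of 9166 in macrophages were at an unadjusted p under 0.05, and DESeq2 called 2 and 0. Macrophages were 1.79% of cells in E14.5 LOF and 1.95% in E13.5 LOF, against 1.85% and 1.97% in E14.5 controls and 1.46% and 2.09% in E13.5 controls, so the LOF values lay within the spread of the controls. With 1 LOF library per stage no LOF effect within a stage can be tested.

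Between stages, set E14.5 over E13.5 in the 4 control libraries, keratinocytes showed the clearest difference. Cxcl14 was at 1550 and 1627 CPM in E14.5 controls, against 3338 and 3605 CPM in E13.5 controls, with no overlap (log2 −1.07, SE 0.20, edgeR adjusted p = 0.0998). It did not pass in that fit, in which 27 of 12436 genes or 0.217% did (0.153% higher, 0.0643% lower). It passed by DESeq2 (adjusted p = 0.00525; 3.22% of genes called) and with no filter on low counts (edgeR adjusted p = 5.34e-04; 3.77% called). Without the replicate 2 E14.5 control, which leaves 1 library at that stage, the value was log2 −1.19. With the inferred batch it was log2 −1.02, which rests on the replicate 2 controls alone, 1 library per stage. The LOF libraries, not used in the fit of the 4 controls, had 1603 CPM at E14.5 and 3618 CPM at E13.5. The summed dissociation genes in keratinocytes divided the controls the same way, at 335 and 854 CPM in E14.5 controls, against 170 and 205 CPM in E13.5 controls. In LOF they were at 505 CPM at E14.5 and 324 CPM at E13.5, and their part in the stage difference was not tested. Suprabasal cells, where Cxcl14 is lower, were 385 and 319 of 1422 and 1306 keratinocytes in E14.5 controls, against 72 and 20 of 972 and 1013 in E13.5 controls. Outside the suprabasal gate the level was 1891 and 1882 CPM in E14.5 controls, against 3520 and 3639 CPM in E13.5 controls. The part of the make-up of keratinocytes in the Cxcl14 stage difference was not tested. Csf1 in keratinocytes was higher at 4.84 and 2.99 CPM in E14.5 controls, against 1.22 and 0.989 CPM in E13.5 controls (log2 1.86, SE 0.44, edgeR adjusted p = 0.153, and adjusted p = 0.0341 without the replicate 2 E14.5 control). Ackr3 was lower in keratinocytes at E14.5 (log2 −1.15, SE 0.37, edgeR adjusted p = 0.281), as was the faint Cxcl12 signal (log2 −1.45, SE 0.53, edgeR adjusted p = 0.343, and adjusted p = 0.0246 without the replicate 2 E14.5 control).

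In control fibroblasts edgeR called 0 of 14232 genes between stages (0%; 2463 at an unadjusted p under 0.05, and 854 or 5.85% by DESeq2). Il34 stood furthest apart, at 2.96 and 4.90 CPM in E14.5 controls, against 0.774 and 0.950 CPM in E13.5 controls, from 97, 99, 34 and 25 UMIs (log2 2.24, SE 0.47, edgeR adjusted p = 0.117). It passed by DESeq2 (adjusted p = 0.00513) and without either E14.5 control (log2 2.64 and 1.71, edgeR adjusted p = 0.0459 and 0.0451), settings in which 1.79% and 21.5% of genes were called. It also passed with no filter on low counts (edgeR adjusted p = 0.0211; 3.01% called). With the inferred batch the value was log2 2.46, which rests on the replicate 2 controls alone, 1 library per stage. The summed dissociation genes in fibroblasts were at 2178 and 3186 CPM in E14.5 controls, against 983 and 1313 CPM in E13.5 controls, and their part in these stage values was not tested. Within upper dermal cells, where Il34 was highest in the dermis, it was at 4.97 and 7.05 CPM in E14.5 controls, against 1.36 and 1.11 CPM in E13.5 controls. Csf1 was higher (log2 0.49, SE 0.25, edgeR adjusted p = 0.359), and Cxcl12 (log2 −0.45, SE 0.26, edgeR adjusted p = 0.397, and adjusted p = 0.0447 without the replicate 2 E14.5 control) and Ackr3 (log2 −0.89, SE 0.38, edgeR adjusted p = 0.302) were lower, none past the test. In macrophages Ccl2 was at 580 and 573 CPM in E14.5 controls, against 377 and 266 CPM in E13.5 controls, with no overlap (log2 0.81, SE 0.30, edgeR adjusted p = 0.585), and 6 of 8096 genes or 0.0741% passed. With the inferred batch the Ccl2 value was log2 1.11, which rests on the replicate 2 controls alone, 1 library per stage. The summed dissociation genes above divided these libraries the same way, and their part was not tested.

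**Figure D4:**
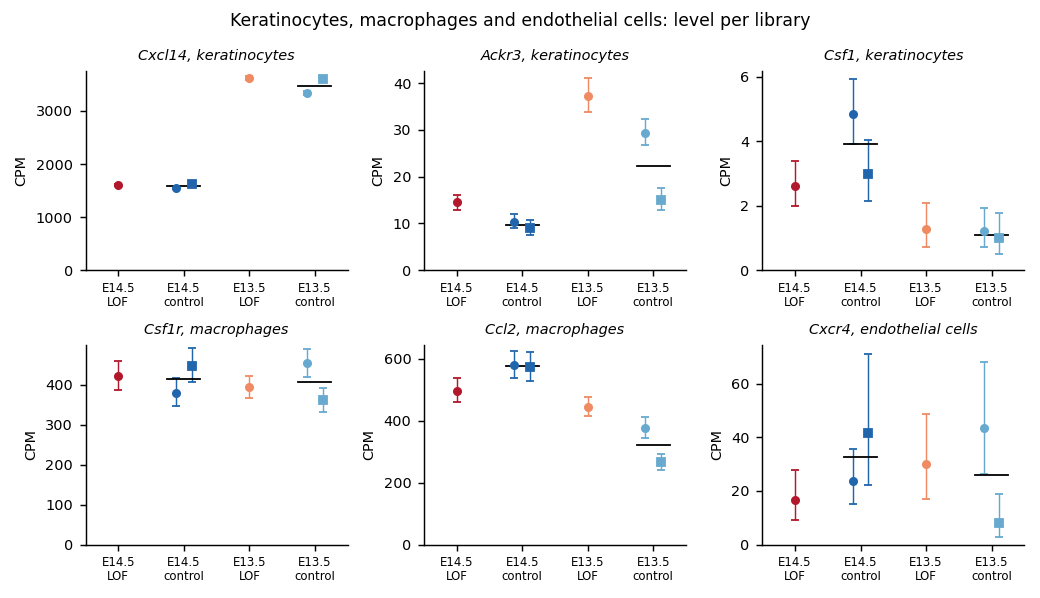
Level (CPM, linear axes from 0) of Cxcl14, Ackr3 and Csf1 in keratinocytes, Csf1r and Ccl2 in macrophages and Cxcr4 in endothelial cells. LOF stands left of control at each stage. Points are libraries (circles replicate 1, squares replicate 2), bars exact 95% Poisson intervals of the UMI count and lines the mean of 2 controls. Cxcl14 separated by stage, with 1550 to 1627 CPM at E14.5 and 3338 to 3618 CPM at E13.5, and Cxcr4 intervals in endothelial cells were wide.

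Other genes of the same systems came from lists of symbols. Of 29 further chemokine ligand genes, 13 reached 20 CPM in some class, and of 21 further chemokine receptor genes 5 did. Between macrophages and fibroblasts 15 ligands were tested, of which 12 were higher and 2 lower with a median log2 of 8.50, against a median of −0.18 over all genes. All 5 receptors tested were higher (median log2 9.76), where 29% of all genes were called higher. A gene nearly absent from fibroblasts passes the filter on low counts only through macrophages, so its direction was set by the filter. These counts therefore describe which genes were tested and cannot be weighed against the share over all genes. Pf4 averaged 2774 CPM in macrophages, Ccl24 302 CPM, Ccl4 295 CPM, Ccl3 278 CPM and Ccl7, a close relative of Ccl2, 216 CPM. The fractalkine receptor Cx3cr1 was at 356 CPM in macrophages, and Ccr2, the receptor of CCL2, was highest in mast cells at 157 CPM. Pericytes held the highest Ccl11, which draws eosinophils, at 171 CPM (log2 4.19 over fibroblasts, SE 0.15, edgeR adjusted p = 2.83e-16), 1 of 5 ligands called there, where 36.1% of all genes were called and 15.4% were higher. In the dermis Ccl11 (log2 −2.78, SE 0.42, edgeR adjusted p = 0.00143) and Cxcl1 (log2 −1.80, SE 0.30, edgeR adjusted p = 0.00178) were lower in upper than in lower dermal cells, 2 of 5 ligands tested (median log2 −0.96, against 0.00 over all genes), where 46.3% of all genes were called and 22.3% were lower. In the placode 1 of 4 ligands was called, Cxcl1, which was higher (log2 2.28, SE 0.27, edgeR adjusted p = 5.80e-06), where 7.2% of all genes were called and 3.5% were higher.

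Genes around CXCL12 and CSF1R were looked at in the same way. Of 7 genes that cut, bind or relay CXCL12 signals, Dpp4, a peptidase that trims CXCL12, was lower in the condensate (log2 −1.86, SE 0.38, edgeR adjusted p = 0.00620). It was the 1 called of 6 tested there, where 4.9% of all genes were called. Dpp4 was also lower in upper than in lower dermal cells (log2 −3.20, SE 0.86, edgeR adjusted p = 0.0252). There 3 of 6 were higher and 1 lower, where 46.3% of all genes were called. In suprabasal keratinocytes Dpp4 was higher (log2 4.04, SE 0.24, edgeR adjusted p = 7.06e-15). There 1 of 6 was higher and 2 lower, where 36.9% of all genes were called. Of 9 growth factor partners, Ptprz1, which also binds IL-34, was higher in keratinocytes than in fibroblasts (log2 2.34, SE 0.13, edgeR adjusted p = 1.00e-06) and averaged 302 CPM in Schwann lineage cells. Sdc1, a syndecan that binds IL-34, was at 127 CPM in keratinocytes, and Spi1, the factor that drives Csf1r, was at 402 CPM in macrophages. In macrophages over fibroblasts 5 of 7 partners tested were higher and 2 lower (median log2 8.23), where 29% of all genes were called higher and 40.8% lower. The filter on low counts limits this count in the same way as those of ligands and receptors. No gene of these 4 lists was called between stages or between LOF and control in fibroblasts, keratinocytes or macrophages. EdgeR called 0% of all genes between LOF and control in each of these classes. Between stages it called 0% in fibroblasts, 0.217% in keratinocytes and 0.0741% in macrophages, so the absence of calls is no result about the lists.

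The genes whose levels ran most like each of the 9 were found by Pearson's r of log2(CPM + 10) over 51 class sums, which share libraries and depth, and are given as a description. Csf1r ran with C1qc (r = 0.995), a gate marker of macrophages, Adgre1 (0.994) and Ms4a6d (0.994), and Ccl2 with Cd83 (0.970), Slc11a1 (0.949) and Slc9a9 (0.948). Cxcl14 ran with 5930412G12Rik (0.939), Ptges (0.923) and Hoxb5os (0.915), and Cxcr4 with Hey1 (0.932), Dock6 (0.833) and Gja4 (0.832). Il34 ran with Cox4i2 (0.912), Cyp4b1 (0.911) and Kcnj8 (0.909), the last a gate marker of pericytes. Cxcl13 ran with Ren1 (0.931), Fgf18 (0.868) and Thbs4 (0.841), Cxcl12 with Tnfaip6 (0.828), Rcn3 (0.815) and Reck (0.815), and Ackr3 with Pdpn (0.814), Spon2 (0.776) and Adh1 (0.774). Csf1 had the weakest matches, Nt5e (0.709), Hlf (0.666) and Slc7a10 (0.641). Within cells, 30 endothelial cells had a Cxcl12 UMI and 16 of them, 53.3%, also had a Cxcr4 UMI, against 15.3% of all 301. These counts are small and not thinned for depth. In fibroblasts 1.24% of cells with a Cxcl12 UMI had a Cxcr4 UMI, against 1.44% of all, and 14.8% had an Ackr3 UMI, against 14.2% of all.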

How the data were processed

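Dorsolateral and flank skin of mouse embryos was measured in 6 libraries, grouped by the labels as E14.5 LOF (n = 1), E13.5 LOF (n = 1), E14.5 control (n = 2) and E13.5 control (n = 2). The deposited files give, for each gene and barcode, the raw count of UMIs, made with Chromium 3′ chemistry per the labels' protocols and with Cell Ranger and Seurat against mm10 per the submitters' processing notes, versions not given. The libraries are pools of embryos, so p-values measure the spread between pools. The genes, lists and gates were chosen with earlier results of these data known.

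Of 41594 barcodes, 40653 passed a minimum of 500 genes and 1000 UMIs with no more than 10% of UMIs mitochondrial. Doublets were scored against simulated pairs and removed at 0.8% per 1000 cells. Fibroblasts had at least 15 UMIs of Col1a1, Col1a2 and Col3a1 and keratinocytes at least 10 of Krt5, Krt14, Krt15 and Epcam. Thresholds of other classes were set after seeing the marker distributions: at least 8 UMIs for endothelial cells, 10 for pericytes and chondrocytes and 5 for the rest, from at least 2 markers, and for subclasses at least 2 UMIs from 2 markers (5 for suprabasal cells). Upper and lower dermal cells had UMIs of at most 1 gene of the other list and were outside the condensate. The macrophage gate left out Fcer1g and Tyrobp, which mast cells share, and cells in no class (3755) or in more than 1 (448) were not used.

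Counts were summed per class and library. The edgeR quasi-likelihood test (4.0.16; robust, TMM, filterByExpr) compared classes with library as a block, stages in the 4 controls, and genotypes in 6 libraries with stage as covariate, with Benjamini-Hochberg adjustment over all genes. DESeq2 1.42.0 was an alternative. The script was tested on simulated data. Genes named were the 9, the 3 most like each of them, and list genes that passed a test or were among the highest. Shares were thinned to 3000 UMIs. Intervals are exact at 95% and, like the floor of 3 counts, cover counting error only. The inferred batches pair replicate 1 controls with the LOF library of their stage and the replicate 2 controls with each other, as inferred from expression in earlier work on these data and not from the labels. With these batches the stage difference comes from the replicate 2 controls alone, 1 library per stage. The LOF difference then comes from the replicate 1 controls and the LOF libraries alone. Fits without the replicate 2 controls were added after seeing the data. The scripts ran in R 4.3.3 and Python 3.11.15 (pandas 2.3.3, numpy 2.4.6, scikit-learn 1.9.0, scipy 1.17.1, matplotlib 3.10.9).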

Additional observations from a re-analysis of the deposited data

Results flagged for a closer look

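Reporter RNA was measured outside the 9 genes. In libraries labelled WT, eGFP in fibroblasts was at 93.7 CPM in E14.5 control replicate 2 and 120 CPM in E13.5 control replicate 2, above the replicate 1 controls. In keratinocytes tdTomato was at 311 CPM in E14.5 control replicate 2, 1037 CPM in E13.5 control replicate 1 and 831 CPM in E13.5 control replicate 2, where E14.5 LOF had 62.5 CPM, E13.5 LOF 991 CPM and E14.5 control replicate 1 39.8 CPM.

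In 3 results the LOF values lay on opposite sides of both controls of their stage at E14.5 and E13.5. Whether the LOF effect differs between stages was not tested. Ccl2 in fibroblasts was at 4.33 CPM in E14.5 LOF, against 6.62 and 5.65 CPM in controls, and at 13.96 CPM in E13.5 LOF, against 9.16 and 7.30 CPM in controls. Csf1 in keratinocytes was at 2.62 CPM in E14.5 LOF, against 4.84 and 2.99 CPM in controls, and at 1.27 CPM in E13.5 LOF, against 1.22 and 0.989 CPM in controls, the last a gap within counting error. Ccl2 in macrophages was at 497 CPM in E14.5 LOF, against 580 and 573 CPM in controls, and at 444 CPM in E13.5 LOF, against 377 and 266 CPM in controls. No group had the 4 samples that a test for a single outlying sample needs.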

How the results depend on the processing

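The 9 genes had 94 tests, of which 41 passed, and a selection of them was followed through the alternative runs. Of 39 selected results that passed, 28 passed with the same sign in every alternative run. Of 27 that did not pass, 10 stayed so with the same sign in every one. Class contrasts between keratinocytes, macrophages, endothelial cells or pericytes and fibroblasts were steadier than stage and LOF contrasts. With DESeq2 the median log2 of all genes moved by 0.12 to 0.39 in 7 of the 8 class contrasts and less in the rest. The cause of the changes below was not tested.

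Genes called between stages in fibroblasts were 854 by DESeq2, 604 with no filter on low counts, 36 with no doublet removal, 1386 with the replicate block, 2272 with an inferred batch, and 258 to 3189 leaving out 1 library. In keratinocytes they were 418 by DESeq2, 690 with no filter, 904 with the replicate block, 1337 with the batch and 55 to 2139 leaving out 1 library. In macrophages they were 18 by DESeq2, 89 with no filter, 56 with the replicate block, 57 with the batch and 16 to 1162 leaving out 1 library. The largest counts came without E14.5 control replicate 2. Between LOF and control in fibroblasts they were 265 by DESeq2, 7 with no filter, 2 with no doublet removal, 671 with the batch, 735 without both replicate 2 controls and 0 to 1 leaving out 1 library. In keratinocytes they were 2, 6 and 16 by DESeq2, with the batch and without the replicate 2 controls, and 0 leaving out 1 library. In macrophages they were 4, 13 and 7 with no filter, with the batch and without the replicate 2 controls, and 0 to 4 leaving out 1 library.

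With no library block the counts were 1664 in pericytes, 2 in the condensate, 1747 in upper over lower dermal cells, 50 in the placode and 872 in suprabasal cells. The condensate count was 1063 with stricter gates and 157 to 873 leaving out 1 library, and the placode count 1262 with no filter and 317 to 1018 leaving out 1 library. The replicate block pairs same-numbered controls. The difference of replicate 1 from replicate 2 at E13.5 was correlated over genes with the same difference at E14.5. The r was 0.34 in fibroblasts, 0.35 in keratinocytes and 0.28 in macrophages, from only 2 pairs. With the replicate block the stage differences of Il34 in fibroblasts (log2 2.17, edgeR adjusted p = 0.00457) and of Cxcl14 in keratinocytes (log2 −1.07, edgeR adjusted p = 0.00273) passed. Those of Cxcl12, Ackr3 and Csf1 in keratinocytes passed as well. Ccl2 in macrophages passed between stages in no setting but the batch, where log2 1.11 rests on 1 replicate 2 control per stage. Without the library block 10 results were no longer called: Csf1, Il34 and Cxcl13 in pericytes, Ackr3 in endothelial cells, Cxcl12 and Csf1 in the condensate, Cxcl14 and Il34 in upper over lower dermal cells, and Ackr3 and Csf1 in the placode.

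Signs turned only in values near 0. Ccl2 between LOF and control in macrophages was −0.0272 with stricter gates, −0.0059 with the batch, −0.0142 without the replicate 2 controls and −0.38 to 0.45 leaving out 1 library. Cxcl14 in the placode was −0.0271 with no filter, −0.28 with stricter gates and −0.0186 to 0.0376 leaving out 1 library. Cxcl14 between LOF and control in keratinocytes was −0.0188 to 0.0780, and Cxcr4 in macrophages −0.59 to 0.0992, leaving out 1 library. Depth limits results that rest on few UMIs, such as Cxcr4 (91) and Ackr3 (35) in endothelial cells, Il34 in pericytes (32), Cxcl13 in upper dermal cells (27) and Csf1 in the condensate (24) and placode (46).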
